A study of Mus musculus with 9 samples.

Results

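The complement system was followed here through 9 genes on 9 one-color arrays of mouse lung RNA. The 9 members were C1qa, C1qb, C1qc, C2, C3, C4b, Cfb, C3ar1 and C5ar1, taken by name as components and receptors of the pathway, out of 20828 genes with a value. All 9 were found, all 9 exceeded their local background by a factor of 1.4 on 9 of 9 arrays, and all 9 were called well above background by the scanner software on every array, so that no member was lost to the filter on dim probes. Each gene was represented by its brightest probe, by the mean over the 9 arrays. The files gave no other probe for the members except C3, which had 2.

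Of the arrays, 4 carried the label Control and 5 the label Irradiated left lung tissue. All mice were C57BL/6 males, labeled Ten-week-old, and the anesthetic given during irradiation was a mixture of zoletil and rompun, which the labels list for the control arrays too. The labels gave no dose, lung region or time after irradiation, while the study used a focal and a wider field at different doses and several times, so each irradiated array could come from another condition, which would then be part of the spread of that group. RNA of triplicate experiments was pooled before labeling, so an array is a pool and not 1 mouse, and the p-values measure only the spread between these arrays.

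Complement is a set of plasma and cell surface proteins that tag microbes, immune complexes and dying cells. C1q, made of A, B and C chains, recognizes the target in the classical pathway, after which C4 and C2 are cleaved to form a convertase that acts on C3. Factor B builds the convertase of the alternative pathway, and the released fragments C3a and C5a act on myeloid cells through the receptors encoded by C3ar1 and C5ar1. Most plasma components come from the liver, whereas C1q is made mainly by macrophages and dendritic cells, and alveolar type II cells and macrophages of the lung make several components locally.

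The tissue label was checked against marker genes. All 5 genes of the type II alveolar list, among them the surfactant genes, were well above background on all 9 arrays, with a log2 level relative to the control mean of −0.04 to 0.06 in the control and −0.22 to 0.09 in the irradiated group. Muscle genes set 2 arrays apart. The 5 cardiac genes had a level of −5.90 on irradiated array 1 and between −0.58 and 0.64 on the other 8 arrays. The 5 skeletal muscle genes had a level of 3.82 on control array 3 and between −2.41 and −0.93 on the other 8. The image positions of the spot grids also put 8 arrays into 4 scan pairs, in each of which the grids lie 1 array pitch apart with nearly the same tilt: control 1 with irradiated 2, control 2 with irradiated 3, control 3 with irradiated 4 and control 4 with irradiated 5. Irradiated array 1 had no partner. Each pair holds 1 array of each group, and what the arrays of a pair share beyond the image is not stated. The calls below are therefore given with and without irradiated array 1, and with the scan pairs as a fixed or random block. Across all 39302 probes, 131 passed an adjusted p under 0.05 (limma with Benjamini-Hochberg adjustment), 75 of them higher on the irradiated arrays. When each array was scaled to its 75th percentile instead of quantile normalized, 52 of 124 were higher, and 12 of 45 were higher in the table normalized by the authors.

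The 3 C1q genes lie side by side on chromosome 4 in the RefSeq annotation of GRCm38.p6, all on the minus strand: C1qb at chr4:136880126-136886200, C1qc at chr4:136889801-136892936 and C1qa at chr4:136895916-136898844. RefSeq promoter entries were found for 5 of the 9 members (C1qb, C1qc, C3, C3ar1 and C5ar1). The 250 bases before the transcript start of C1qb (chr4:136886201-136886450, minus strand), C1qc (chr4:136892915-136893164, minus strand) and C3ar1 (chr6:122856158-122856407, minus strand) are shown because these are the members with an entry among the 4 with the largest differences in the fit to 9 arrays. The entry of C1qc counts from a transcript that starts inside the gene interval given above, so its window overlaps the end of that interval. Capitals mark a match to GAGGAA or its reverse complement TTCCTC, the core bound by PU.1, an ETS factor of myeloid cells.
C1qb: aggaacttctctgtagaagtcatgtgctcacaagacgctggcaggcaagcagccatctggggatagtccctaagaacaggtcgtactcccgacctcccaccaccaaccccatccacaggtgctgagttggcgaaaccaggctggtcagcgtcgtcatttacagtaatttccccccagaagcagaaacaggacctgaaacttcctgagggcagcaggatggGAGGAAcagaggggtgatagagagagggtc
C1qc: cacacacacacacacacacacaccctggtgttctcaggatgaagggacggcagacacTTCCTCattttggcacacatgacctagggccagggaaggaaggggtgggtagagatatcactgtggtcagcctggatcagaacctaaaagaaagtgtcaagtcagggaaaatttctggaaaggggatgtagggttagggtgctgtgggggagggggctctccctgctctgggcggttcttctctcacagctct
C3ar1: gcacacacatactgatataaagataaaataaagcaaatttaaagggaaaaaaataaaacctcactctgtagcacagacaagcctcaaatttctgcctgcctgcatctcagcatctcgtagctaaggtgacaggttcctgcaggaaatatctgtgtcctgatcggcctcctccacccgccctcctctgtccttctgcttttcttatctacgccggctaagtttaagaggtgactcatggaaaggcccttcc
One match starts 30 bases before the transcript start of C1qb on the gene's strand and 1 starts 193 bases before that of C1qc on the opposite strand. The windows of C3, C3ar1 and C5ar1 held none, and 23.3% of 32851 RefSeq windows of this length held at least 1 on either strand. The other motifs searched on both strands were GAAANNGAA (7.13% of windows; 1 match in C5ar1), TTCNNNGAA (7.02%; none in the 5), TATAAA (12.4%; 1 match in C3ar1) and GGGANTTTC (0.941%; none in the 5). No match overlapped another motif. A match is a string of letters in the window and was not tested as a binding site.

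The chains of C1q, with the receptor gene C3ar1, had the largest differences among the members in the fit to all 9 arrays. Without control array 4 the difference of C1qc (0.68) was below those of C4b (0.81) and Cfb (0.74), and without irradiated array 2 it (0.67) was below that of C4b (0.71). C1qa, the A chain, had log2 intensities of 12.61, 11.76, 11.44 and 11.72 on control arrays 1 to 4 and of 11.85, 13.60, 13.10, 12.89 and 12.66 on irradiated arrays 1 to 5. Irradiated arrays 2 to 5 lay above all controls, and irradiated array 1 lay among them. The log2 difference was 0.94 (95% interval 0.19 to 1.69), a ratio of 1.91 (1.14 to 3.22), with an adjusted p of 0.347 and an exact two-sided permutation p of 0.0476. For 4 arrays against 5 the smallest p of this permutation test is 0.00794.

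C1qb, the B chain, followed C1qa closely. Its log2 intensity was 12.15, 11.31, 11.07 and 11.22 on the control arrays and 11.46, 13.12, 12.72, 12.55 and 12.22 on the irradiated arrays. Again 4 of 5 irradiated arrays exceeded every control, with control array 1 the highest control for both genes. The log2 difference was 0.98 (0.25 to 1.71), with an adjusted p of 0.304 and an exact permutation p of 0.0397. Between C1qa and C1qb the root-mean-square difference of the values relative to the control mean was 0.0574 on the log2 scale over the 9 arrays, the smallest of the 36 pairs of members.

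C1qc, the C chain, was read on 10 spots of each array. It had values of 12.76, 12.74, 12.10 and 12.08 on the control arrays and of 11.85, 13.70, 13.64, 13.62 and 13.26 on the irradiated arrays. Irradiated array 1 was below all 4 controls and the other irradiated arrays were above them, so the groups overlapped. The log2 difference was 0.79 (−0.02 to 1.61), with an adjusted p of 0.520 and an exact permutation p of 0.135. The SD among the 10 spots of an array was between 0.0245 and 0.0577, against an SD between arrays of 0.38 in the control and 0.78 in the irradiated group.

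**Figure D1:**
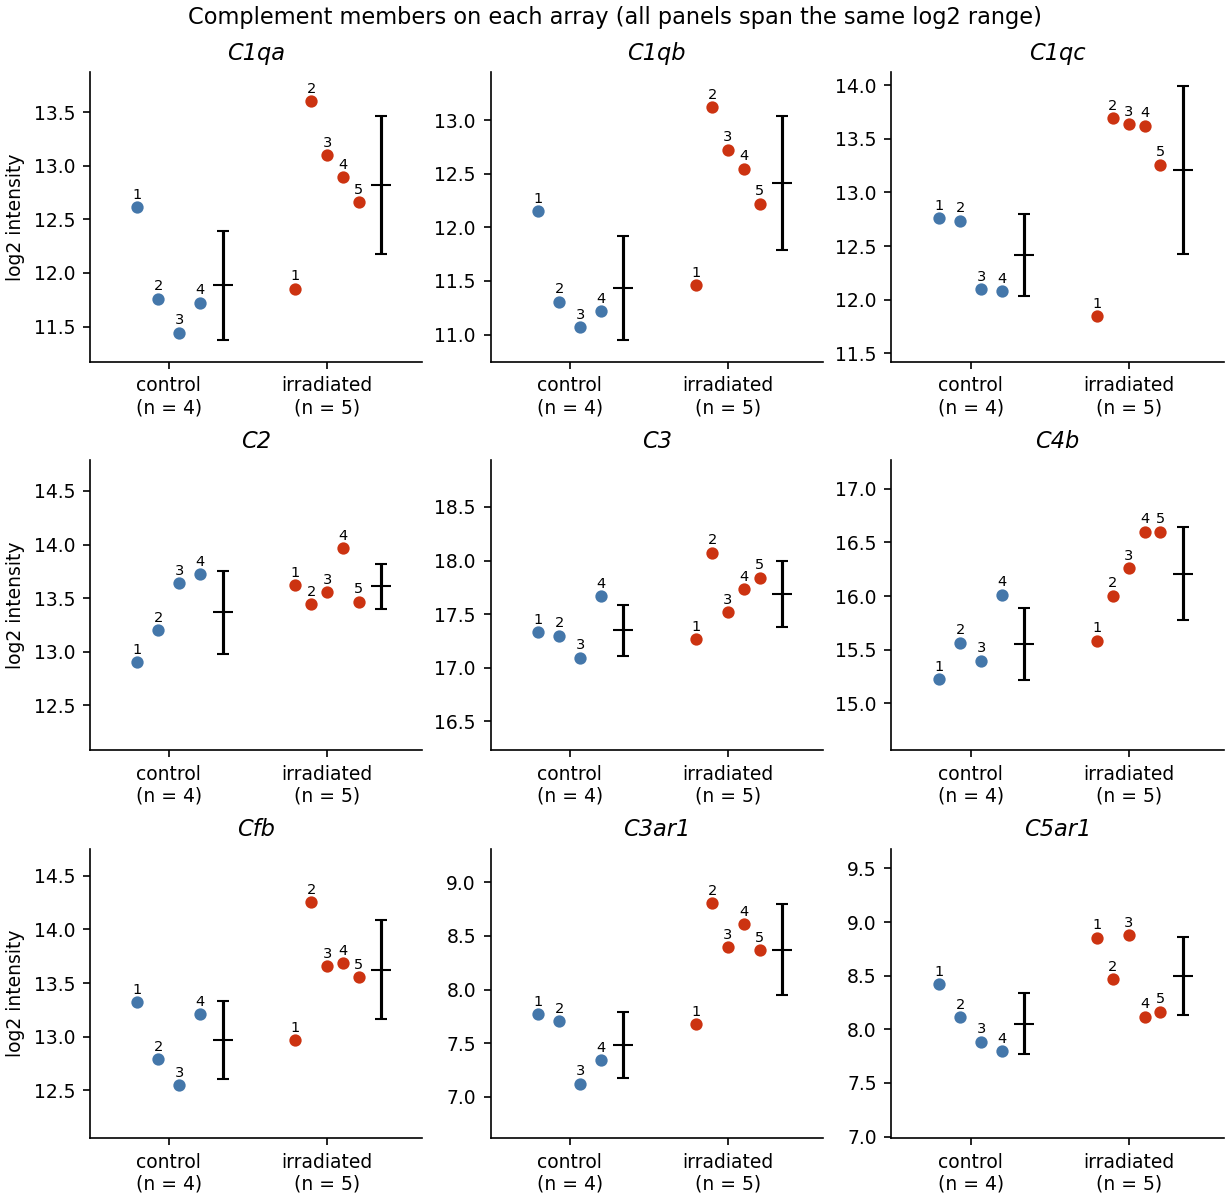
Log2 intensity (vertical axis, quantile normalized, every panel spanning the same range) of each of the 9 members on 4 control (blue) and 5 irradiated (red) arrays, numbered by replicate, with the mean and SD as bars. Irradiated array 1 lies within or below the controls for C1qa, C1qb and C1qc, and irradiated arrays 2 to 5 lie above them.

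The components that are cleaved to build the convertases were less uniform. C4b encodes C4, the thioester protein that attaches to the target surface (chr17:34728139-34743902). Its log2 intensity was 15.23, 15.57, 15.40 and 16.01 on the control arrays and 15.58, 16.00, 16.26, 16.60 and 16.60 on the irradiated arrays. Irradiated arrays 3 to 5 lay above all controls. The log2 difference was 0.66 (0.15 to 1.17), with an adjusted p of 0.326 and an exact permutation p of 0.0476. C4a is a near-identical neighbor, so the probe may read both genes and the value of C4b is uncertain in that respect.

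C2 and Cfb, paralogous serine proteases of the classical and the alternative convertase, are adjacent on chromosome 17 (Cfb at chr17:34856374-34862514, C2 at chr17:34862602-34882100). Cfb had values of 13.32, 12.79, 12.55 and 13.21 on the control arrays and of 12.97, 14.26, 13.66, 13.69 and 13.56 on the irradiated arrays, 4 of which exceeded every control. Its log2 difference was 0.66 (0.11 to 1.20), with an adjusted p of 0.368 and an exact permutation p of 0.0714. C2 had values of 12.91, 13.20, 13.64 and 13.72 on the control arrays and of 13.62, 13.44, 13.56, 13.96 and 13.47 on the irradiated arrays, of which only array 4 was above all controls. The log2 difference of C2 was 0.24 (−0.15 to 0.64), with an adjusted p of 0.747 and an exact permutation p of 0.278. It was 0.09 without control array 1, 0.16 without irradiated array 4 and 0.36 without control array 4. C2 and C1qb were the least alike of the 36 pairs of members, with a root-mean-square difference of 0.862.

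C3, the central component on which all pathways converge (chr17:57203967-57228136), was at 17.33, 17.30, 17.09 and 17.67 on the control arrays and at 17.27, 18.07, 17.52, 17.73 and 17.84 on the irradiated arrays. Irradiated arrays 2, 4 and 5 were above all controls. The log2 difference was 0.34 (−0.04 to 0.71), with an adjusted p of 0.561 and an exact permutation p of 0.119. The second C3 probe gave a difference of 0.32 (−0.13 to 0.77), with an adjusted p of 0.687. The 10 spots of the brighter probe varied with an SD of 0.0169 to 0.0736 within an array.

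The receptors of the released fragments differed from each other in which arrays were high. C3ar1, the receptor of C3a (chr6:122847140-122856157), had log2 intensities of 7.77, 7.71, 7.12 and 7.34 on the control arrays and of 7.68, 8.81, 8.39, 8.61 and 8.37 on the irradiated arrays. All but irradiated array 1 exceeded every control. The log2 difference was 0.89 (0.35 to 1.42), a ratio of 1.85 (1.27 to 2.68), with an adjusted p of 0.201, the lowest of the 9 members, and an exact permutation p of 0.0317.

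C5ar1, the receptor of C5a (chr7:16246743-16259540), had values of 8.42, 8.11, 7.88 and 7.79 on the control arrays and of 8.86, 8.47, 8.87, 8.12 and 8.16 on the irradiated arrays. Irradiated arrays 1 to 3 were above all controls, so C5ar1 was the one member for which irradiated array 1 did so. Its log2 difference was 0.44 (−0.04 to 0.92), with an adjusted p of 0.548 and an exact permutation p of 0.0952.

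Across the list, 9 of 9 differences were positive, with a median of 0.66 and a range of 0.24 to 0.98, against a median of 0.01 over all 20828 genes. None of the 9 passed the adjusted threshold in the limma fit to 9 arrays, where 0.399% of all genes did in either direction. At an unadjusted p under 0.05, 5 of 9 members were called, all higher, whereas 7.07% of all genes were called higher and 4.94% lower. The groups overlapped for all 9 members; for 3.22% of all genes every irradiated array was above every control array, and for 1.74% every one was below. At least 4 of 5 irradiated arrays exceeded all controls for 5 of 9 members (C1qa, C1qb, C1qc, Cfb and C3ar1), and for 8.51% of all genes. The members were chosen with earlier results of these data known, and in bulk tissue fewer cells of a type cannot be told apart from less RNA per cell. Whether the difference of one member exceeds that of another was not tested.

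**Figure D2:**
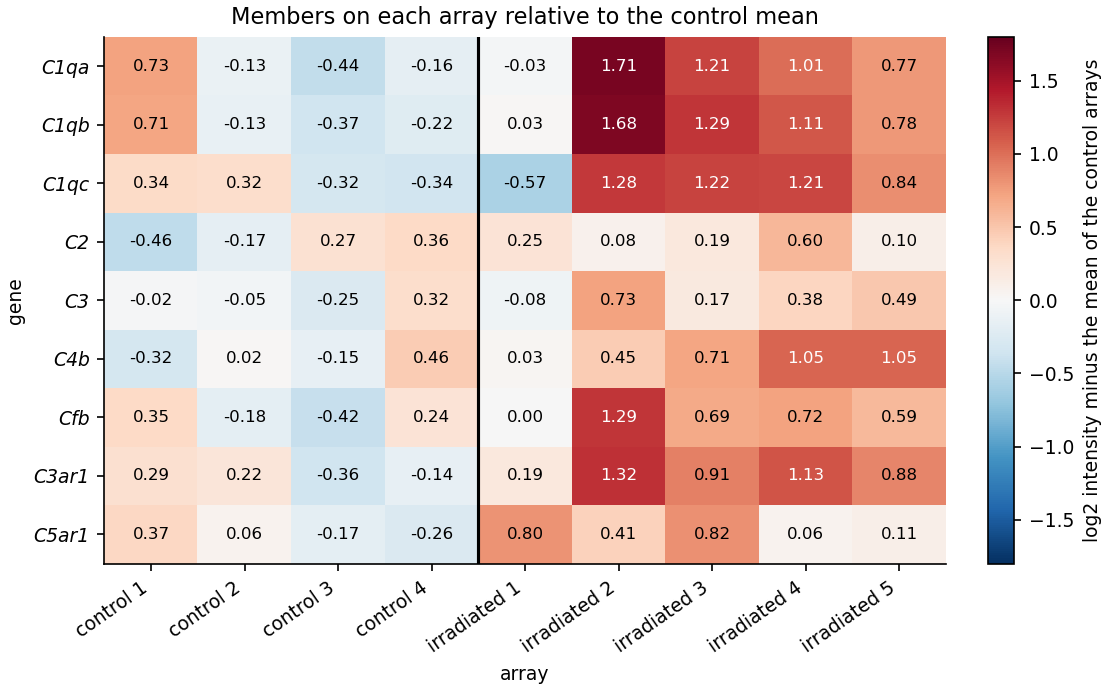
Log2 intensity minus the mean of the 4 control arrays (color and printed value) for the 9 members (rows) on each of the 9 arrays (columns), with a line between the groups. On irradiated array 1 the median of the members is 0.03, against 0.77 to 1.28 on irradiated arrays 2 to 5.

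Irradiated array 1 was the lowest of its group by the median of the members. The median of the 9 members relative to the control mean was 0.03 on irradiated array 1, against 1.28, 0.82, 1.01 and 0.77 on irradiated arrays 2 to 5. It was the lowest irradiated array for 7 of 9 members, C2 and C5ar1 being the exceptions. Irradiated array 2 was the highest for 6 of 9. Among the control arrays the medians were 0.34, −0.05, −0.32 and −0.14, so control array 1 was the highest of the controls by this median, although it was the lowest control for C2 and C4b.

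Without irradiated array 1, 2 of 9 members passed the adjusted threshold, where 1.06% of 20806 genes were called higher. C1qc was then 1.13 higher on the log2 scale (0.71 to 1.55, adjusted p = 0.0291), or 2.19-fold. C3ar1 was 1.04 higher (0.61 to 1.48, adjusted p = 0.0401), or 2.06-fold. C1qa at 1.17 and C1qb at 1.21 had adjusted p-values of 0.0870 and 0.0657 in the same limma fit. C5ar1 moved the other way, from 0.44 to 0.35. Without control array 3, which had the highest level of the skeletal muscle genes, none of the 9 members passed in limma, as with all 9 arrays. In that fit 3 members had an unadjusted p under 0.05. In that fit 3452 of 39290 probes had an unadjusted p under 0.05, in either direction.

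Within the scan pairs, the irradiated array was above its control partner in all 4 pairs for 8 of 9 members, as it was for 17.3% of all genes. For C1qa the 4 differences ran from 0.94 to 1.45, for C1qb from 0.97 to 1.48, for C1qc from 0.90 to 1.53 and for C3ar1 from 0.69 to 1.49. The differences of C2 ran from −0.25 to 0.54, with 3 of 4 above 0. With the pairs as a block in limma, which drops irradiated array 1, 5 of 9 members rose past the adjusted threshold, where 2.18% of all genes were called higher. They were C1qb at 1.22 (adjusted p = 0.0258), C1qa at 1.18 (adjusted p = 0.0258), C1qc at 1.14 (adjusted p = 0.0277), C4b at 0.81 (adjusted p = 0.0395) and C3ar1 at 1.06 (adjusted p = 0.0410). Cfb, at 0.82, had an adjusted p of 0.0506. With the pairs as a random block on all 9 arrays, 6 of 9 were called, the same 5 and Cfb at 0.76 (adjusted p = 0.0231), where 5.41% of all genes were called higher. C2, C3 and C5ar1 did not pass in either block fit. The calls of the members therefore differed with the scan pairs in the model and with irradiated array 1 in the fit, while the sign of no member changed. The fixed block changes both at once, since irradiated array 1 has no partner.

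**Figure D3:**
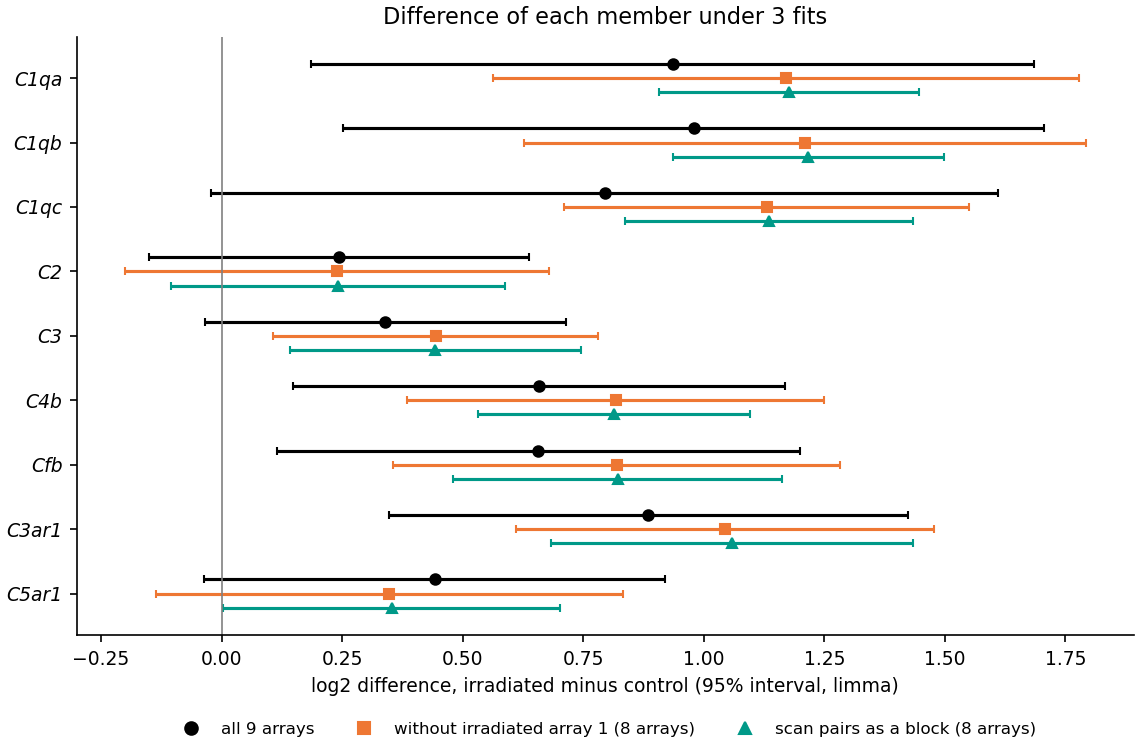
Log2 difference, irradiated minus control (horizontal axis, with 95% intervals from limma), of each member in the fit to all 9 arrays (circles), without irradiated array 1 (squares) and with scan pairs as a block (triangles). The intervals of C1qc include 0 with all 9 arrays and lie above 0 in the other fits, and those of C2 include 0 in all 3.

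Of 45 other genes of the complement system, 44 were found on the arrays and C4a was not. Their median difference was 0.24, with 29 positive and 15 negative. In the fit to 9 arrays, 1 of 44 passed the adjusted threshold, and at an unadjusted p under 0.05 there were 11 higher and 4 lower, against 7.07% and 4.94% of all genes. The one called was Cpn2, the non-catalytic subunit of carboxypeptidase N, a plasma enzyme that inactivates C3a and C5a. It was at 4.71, 4.73, 3.49 and 4.44 on the control arrays and at 5.87, 6.20, 7.10, 6.51 and 7.06 on the irradiated arrays, so that the groups did not overlap. Cpn2 rose by 2.21 (1.43 to 2.98) on the log2 scale, with an adjusted p of 0.0416 and an exact permutation p of 0.00794. It was well above background on 3 of 4 control arrays and on all 5 irradiated arrays. The call was lost when any one array other than irradiated array 1 was left out (adjusted p 0.0674 to 0.127 in limma). A second, dimmer Cpn2 probe was not well above background on any control array and is not used.

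Among the regulators of C3b and C4b, C4bp and Cfi had the highest values. C4bp, a cofactor for the cleavage of C4b, was at 4.22, 3.52, 2.55 and 3.53 on the control arrays and at 4.74, 5.78, 7.04, 6.65 and 7.59 on the irradiated arrays. C4bp was well above background on 0 of 4 control and 4 of 5 irradiated arrays, so its irradiated mean was also set against a floor. It was 5.07-fold above that floor, which is a point value and not a lower limit. The fitted difference was 2.91 (1.65 to 4.16), with an adjusted p of 0.0745 in limma. The floor of a control array was the lowest signal of any probe well above background there, or the C4bp value where higher. The irradiated mean includes the array that was not well above background. Cfi, factor I, the protease that cleaves C3b and C4b, was at 7.83, 7.82, 7.22 and 7.21 on the control arrays and at 7.75, 9.19, 10.75, 10.84 and 11.03 on the irradiated arrays, of which array 1 lay among the controls. Its difference was 2.39 (1.00 to 3.78), with an adjusted p of 0.178.

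Without irradiated array 1, 5 of 44 rose past the threshold, against 1.06% of all genes called higher: C4bp at a fitted 3.31 (adjusted p = 0.0172), Cfi at 2.90 (adjusted p = 0.0156), Cpn2 at 2.36 (adjusted p = 0.0194), Itgax at 0.81 (adjusted p = 0.0386) and Clu at 0.74 (adjusted p = 0.0399). Itgax encodes the alpha chain of complement receptor 4, and Clu encodes clusterin, an inhibitor of the terminal complex. With scan pairs as a block, 5 of 44 rose (C4bp, Cfi, Cpn2, Clu and C6) and Cd55b fell, against 2.18% and 1.54% of all genes. With the pairs as a random block 9 of 44 rose and 5 fell, where 5.41% of all genes were called higher and 3.78% lower. C6 was not among them (adjusted p = 0.104, limma). Among the 9 were C4bp (adjusted p = 0.00439), Cfi (adjusted p = 0.00968), Cpn2 (adjusted p = 0.00169) and Clu (adjusted p = 0.0153, limma). C4bp, Cfi and Cpn2 are best known as liver genes, so the hepatocyte list was set beside them. Of its 10 genes, 7 were higher and 3 lower, with a median of 0.39. In limma none was called with 9 arrays and 1 was higher at an unadjusted p under 0.05, as were 7.07% of all genes. Fgg was called higher without irradiated array 1 and in both block fits. The level of the list was between −0.33 and 0.58 on the control and between −0.23 and 1.34 on the irradiated arrays. Its summed linear intensity was 92871 to 113053 and 103696 to 153834. Alb was well above background on 2 of 4 control and 5 of 5 irradiated arrays, and Apoa1 on 0 of 4 and 2 of 5. Its brightest gene, Trf, differed by 0.26 and its most changed, Fgg, by 2.77. The part of this list in the 3 differences was not tested.

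Lower values were found for Cfd and Cr2. Cfd, factor D, the protease that activates factor B and a product of fat cells, was at 16.44, 16.15, 14.82 and 15.76 on the control arrays and at 12.32, 15.73, 14.25, 12.78 and 11.79 on the irradiated arrays. Irradiated array 2 lay among the controls and the other 4 lay below them. The difference was −2.42 (−4.05 to −0.79), with an adjusted p of 0.250 without a block, and −2.26 with an adjusted p of 0.0266 with scan pairs as a random block (limma). Cfd was not called without irradiated array 1 (−2.16, adjusted p = 0.298, limma) or with the fixed block (−2.16, adjusted p = 0.0976, limma). Of 8 other adipocyte genes, listed after the values of Cfd were seen, 8 were lower, with a median of −1.96. This list had a level of −0.41 to 0.36 in the control group and of −2.79, −0.05, −1.13, −2.14 and −2.64 on irradiated arrays 1 to 5, with Fabp4 the brightest (−1.59) and Car3 the most changed (−2.76). Its summed intensity was 36258 to 93545 on the control and 7138 to 63901 on the irradiated arrays. In limma none of the 8 was called without a block, with or without irradiated array 1, or with the fixed block. With 9 arrays 6 were lower at an unadjusted p under 0.05, as were 4.94% of all genes. With the random block 5 of the 8 fell, against 3.78% of all genes. The part of the adipocyte genes in the value of Cfd was not tested.

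Fcnb, a ficolin of neutrophil precursors that starts the lectin pathway, was well above background on 1 of 4 control and 1 of 5 irradiated arrays. Its fitted difference was −1.38 (−3.51 to 0.75, adjusted p = 0.726), and −0.18 (adjusted p = 0.961, limma) without control array 3, which was at 8.02 with the other controls at 2.57 to 3.91. Cr2, complement receptor 2 of B cells, was between 11.29 and 11.72 on the control and between 10.79 and 11.20 on the irradiated arrays, so the groups did not overlap. Its difference was −0.48 (−0.77 to −0.19), with an adjusted p of 0.204 in limma (0.0401 with the random block and 0.179 with the fixed block). On its second probe too all irradiated arrays were lower. Cd59b, an inhibitor of the membrane attack complex, did not overlap in the other direction. Its difference was 0.77 (0.22 to 1.32), with an adjusted p of 0.282 in limma (0.0202 with the random block and 0.0836 with the fixed block). Cd59a, its close paralog, differed by 0.28, and the probes may share signal. It too was called higher with the random block (0.30, adjusted p = 0.0332, limma) and not with the fixed block (adjusted p = 0.0865).

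By role, the proteases of the C1 complex had similar positive values, 0.30 for C1ra, 0.31 for C1rb, 0.32 for C1s1 and 0.23 for C1s2. In the terminal pathway Hc, which encodes C5, differed by −0.30, C6 by 0.38 and C7 by 0.57, whereas C8a, C8b and C9 were not well above background on any array and C8g differed by −0.10. Of other plasma and membrane regulators, Serping1 differed by 0.25, Cd55 by −0.21, Cd55b by −0.30 and Cr1l by −0.03. Among the receptors, Itgax differed by 0.70, Itgb2 by 0.45 and C5ar2, the second receptor of C5a, by 0.03. The 3 probes of Itgam disagreed, at −0.51, −0.07 and 0.00. Without a block, none of these passed the adjusted threshold with 9 arrays (limma). With scan pairs as a random block on the same 9 arrays, C1s1, Itgax and Itgb2 were called higher (adjusted p = 0.0228, 0.00910 and 0.0440) and Cd55, Cd55b and the brightest Itgam probe lower (adjusted p = 0.0497, 0.0207 and 0.0415). With the fixed block Cd55b was again called lower (adjusted p = 0.0484, limma). C1s1, Itgax, Itgb2, Cd55 and Itgam were not called in that fit (adjusted p 0.0538 to 0.136).

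**Figure D4:**
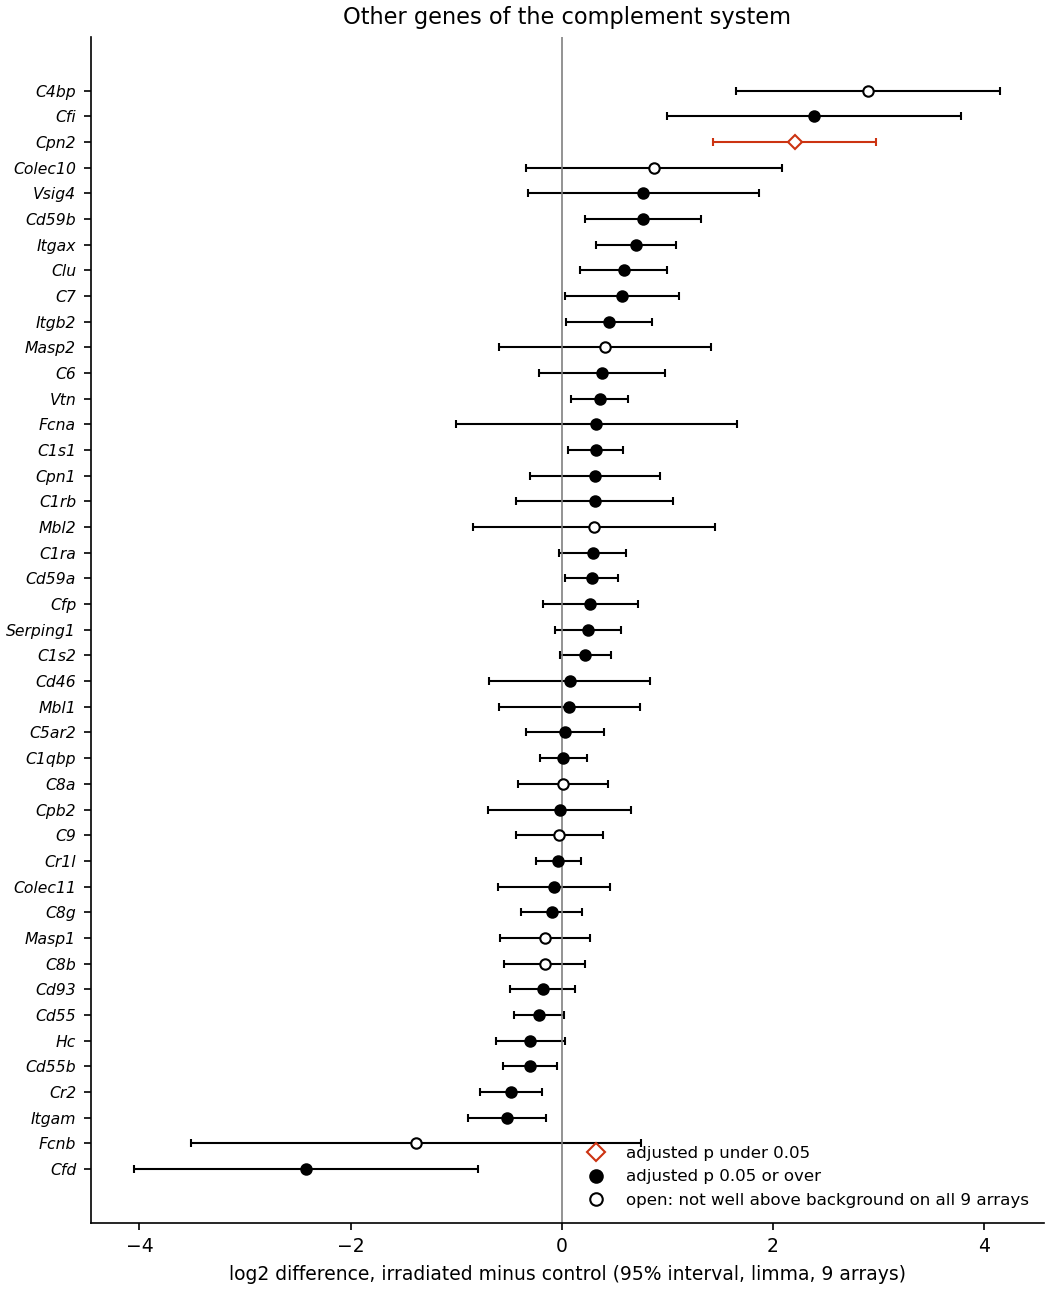
Log2 difference, irradiated minus control (horizontal axis, with 95% intervals from limma), of 43 of the 44 other complement genes in decreasing order. The diamond marks Cpn2, the gene past an adjusted p under 0.05, and open symbols mark the 10 genes not well above background on all 9 arrays. Cfi and Cpn2 lie at 2.39 and 2.21 and Cfd at −2.42, and the point of C4bp is a fitted value against control arrays that were not well above background.

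Genes next to the members gave a local background. Within 100 kb of the C1q genes, Epha8 differed by 0.85 (adjusted p = 0.488), Ephb2 by −0.50 (adjusted p = 0.496) and Zbtb40 by −0.01. Around C4b, C2 and Cfb in the class III region of the major histocompatibility complex, 17 of 18 neighboring genes were on the arrays, with a median of 0.04 and a range of −0.23 to 1.14. The 6 neighbors of C3 had a median of 0.13, of which Tnfsf9 at 0.71 was above all controls on 5 of 5 irradiated arrays. The medians next to C3ar1 and C5ar1 were 0.04 and 0.03. None of the 39 neighbors on the arrays was called in limma. At an unadjusted p under 0.05, 3 were higher and 1 lower, near the 7.07% and 4.94% of all genes. None was called without irradiated array 1, Tnfsf9 rose and Inafm1 fell with the fixed block, and Hspa1a and Ephb2 joined them, higher and lower, with the random block. Of all genes, 2.18% rose and 1.54% fell with the fixed block, and 5.41% and 3.78% with the random block.

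The genes most like the mean profile of the C1q chains were sought among 15714 genes that were well above background on all 9 arrays and were no members. By the root-mean-square difference of the log2 values relative to the control mean, over 9 arrays, they were Insl6 (0.160), Tubb3 (0.223) and Ms4a6d (0.236). Insl6 differed by 0.91 between the groups, Tubb3 by 0.78 and Ms4a6d by 1.03, which is a description, since they were chosen on the same values. Ms4a6d encodes a membrane protein of the MS4A family.

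Markers of cells that make or carry these molecules were read beside the members. Of 12 macrophage genes 10 were found, and 9 of the 10 were higher, with a median of 0.48. In limma none was called with 9 arrays and 6 were higher at an unadjusted p under 0.05, as were 7.07% of all genes. Without irradiated array 1, 2 of 10 rose (Adgre1 and Msr1), against 1.06% of all genes. With the fixed block 5 rose and with the random block 6, against 2.18% and 5.41% of all genes. The list had a level of −0.27 to 0.24 in the control group, 0.26 on irradiated array 1 and 0.41 to 0.57 on irradiated arrays 2 to 5, and the summed intensity was 113167 to 185627 and 166498 to 210579. Adgre1, Mrc1 and Msr1 were above all controls on 5 of 5 irradiated arrays, as were 3.22% of all genes. Marco differed by −0.63, with 3 of 5 irradiated arrays below all controls, and Csf1r by 0.09. Lyz2, the brightest of the list, differed by 0.30, and Msr1, the most changed, by 1.38 (adjusted p = 0.0839). All 10 were well above background on 9 of 9 arrays.

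Of 5 monocyte and dendritic cell genes 4 were found, and all 4 were higher, with a median of 0.22. None was called with 9 arrays in limma. Cd209a was called higher without irradiated array 1 and with the fixed and random block, as were 1.06%, 2.18% and 5.41% of all genes. The level of the 4 was −0.37 to 0.19 in the control group, −0.37 on irradiated array 1 and 0.25 to 0.64 on irradiated arrays 2 to 5. Of 6 genes of neutrophils, which carry the C5a receptor, 5 were found, of which 1 was higher and 4 were lower, with a median of −0.45. The level of the neutrophil list was 0.65, −0.03, −0.16 and −0.46 on control arrays 1 to 4. On irradiated arrays 1 to 5 it was 0.28, −0.39, 0.06, −0.89 and −0.9995. C5ar1, relative to its control mean, was at 0.80, 0.41, 0.82, 0.06 and 0.11 on these irradiated arrays. Within the irradiated group both were thus highest on arrays 1 and 3, although only C5ar1 lay above its control mean on arrays 2, 4 and 5. The part of these lists in the values of the members was not tested.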

How the data were processed

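RNA of control and irradiated mouse lung was hybridized to one-color Agilent arrays. The authors deposited the scanner output as intensity values without normalization between arrays, and a table of normalized intensity values. Spots were numbered by image position. The log2 processed signal was used in R 4.3.3 without control spots and outlier spots. Probes whose median signal exceeded 1.4-fold of the background on 4 or more of 9 arrays were kept (39302 of 39429) and quantile normalized, and spots of a probe were averaged. Of these, 88 lacked a value on some array. No spot was saturated, 72.8% to 89.1% of spots were well above background, and the number of arrays limits the precision.

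Symbols and positions came from RefSeq (GRCm38.p6) through accessions, for 27560 probes. The groups were compared with limma 3.58.1 (intensity trend, no covariates, Benjamini-Hochberg adjustment over all probes, threshold 0.05), and for single genes with an exact two-sided permutation test over arrays. The limma fit without a block was tried on simulated data with independent noise on each array. Those data held no correlation within scan pairs, which the random block put at 0.605, so they cannot speak for the block fits. Named genes were the 9 members, other complement genes that were called, did not overlap or had the 5 largest differences, the 3 most similar profiles, and the brightest and most changed marker genes. One of the other complement genes entered the counts and is not reported here by name. Genes listed by role, neighbors of the members and the other marker genes named (Adgre1, Mrc1, Marco, Csf1r, Alb and Apoa1) were chosen after their values were seen. Members and lists were chosen with earlier results of these data known. Marker lists not described above (type I alveolar, club, endothelium, fibroblast, B and T lymphocyte) had medians of 0.32, −0.30, −0.17, 0.30, −0.27 and −0.13, with no call in the fit to 9 arrays without a block. The alternatives are given in the closing section.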

Additional observations from a re-analysis of the deposited data

Results flagged for a closer look

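Of 62 groups of 4 control or 5 irradiated arrays examined for an array far from the rest of its group by Dixon's criterion, 3 (4.84%) held one, where chance gives about 1 in 20. C1qc on irradiated array 1 had a log2 intensity of 11.85, against 13.26 to 13.70 on the other irradiated arrays. The skeletal muscle list on control array 3 had a level of 3.82 relative to the control mean, against −1.87 to −0.95 on the other controls. The cardiac muscle list on irradiated array 1 had a level of −5.90, against −0.48 to 0.36 on the other irradiated arrays.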

How the results depend on the processing

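None of 180 member values under 20 alternatives changed sign, 167 kept their side of the threshold and 13 passed it. With normexp background correction, 75th percentile scaling, either background filter, the authors' table, no intensity trend, array weights or the mean of all probes, 0 of 9 members passed in limma. In these fits 5 or 6 members had an unadjusted p under 0.05, as had from 1594 of 38841 probes (authors' table) to 4202 of 39302 (array weights). The median of the members stayed within 0.397 (SD between arrays) of 0.66 under all 20. Members passed without irradiated array 1 (C1qc 1.13, C3ar1 1.04), with scan pairs as a block (5 members: C1qa 1.18, C1qb 1.22, C1qc 1.14, C4b 0.81, C3ar1 1.06) and with them as a random block (6 members: C1qa 1.08, C1qb 1.12, C1qc 1.00, C4b 0.75, Cfb 0.76, C3ar1 0.99).

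Leaving out each array in turn gave 0 to 2 members, 0 to 5 other complement genes and 5 to 485 probes past the threshold; 485 was without irradiated array 1, 49 without control array 1, 11, 5 and 8 without control arrays 2, 3 and 4, and 13, 6, 21 and 37 without irradiated arrays 2 to 5. The other complement genes numbered 0 in the authors' table, without a trend and with the replicate block, 2 with array weights, 6 with scan pairs as a block and 14 as a random block. Probes numbered 197 with the filter on all 9 arrays, 45 in the authors' table, 44 without a trend, 205 with array weights, 1099 with scan pairs as a block and 2898 as a random block. The label numbers did not pair the arrays (correlations of deviations −0.167 to 0.0622), and a replicate block of arrays 1 to 4 of each group left 1 probe, 0 members and 0 other complement genes. In that limma fit 4 members had an unadjusted p under 0.05, as had 3267 of 39302 probes. In the authors' table C3ar1 was 0.59 and C5ar1 0.27. The causes were not tested. The number of arrays limits all of these.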
